A study of Mus musculus with 3 samples.

Results

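Csf1, Il34, Csf2, Csf3, Csf1r, Mif and Ddt are the myeloid growth factor and MIF genes examined in SB28, a transplantable mouse glioblastoma line used in studies of glioma immunity. The 7 genes were taken by symbol from the 24421 gene lines of the count tables, and each of the 7 had a line. The data are RNA-seq read counts of 3 libraries, replicates 1, 2 and 3, that form 1 group on the C57BL/6 background with brain as the source. The labels name no control, treatment, culture condition, age or time, and whether the replicates are separate cultures is not stated. The errors and p-values below therefore describe differences among these 3 samples alone, which could be technical. SB28 grew out of a mouse tumour that was started by transferring oncogenes into the brain with a transposon, and the data are levels in that 1 line.

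CSF1 and IL-34 are secreted ligands of the receptor tyrosine kinase CSF1R, through which macrophages, monocytes and microglia survive and divide. CSF2 (GM-CSF) and CSF3 (G-CSF) drive the production and activation of granulocytes and macrophages through other receptors. MIF, macrophage migration inhibitory factor, is a small cytokine with a tautomerase fold, and DDT, D-dopachrome tautomerase, is its paralog; both bind CD74 on the cell surface. In gliomas, tumour-derived ligands of this kind are known to attract and maintain myeloid cells, while the receptors are mostly a property of those cells.

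The genes divided into 4 that were transcribed in each library and 3 that were near 0. Csf1, Il34, Mif and Ddt, 4 of 7, reached 1 count per 1000000 (CPM) in all 3 libraries, against 46.6% of all gene lines. Csf2, Csf3 and Csf1r lay below 1 CPM in all 3. CPM does not allow for gene length, so genes were put in order of level per kilobase of exon, as Mif (297 ± 17.4 CPM per kb, SD, n = 3), Csf1 (60.8 ± 18.4), Ddt (14.3 ± 3.85), Il34 (9.47 ± 1.17), Csf3 (0.147 ± 0.103), Csf1r (0.0349 ± 0.0176) and Csf2 (0.0144 ± 0.0249). Of the 11379 genes detected at 1 CPM in all libraries, those with an annotated exon length were ranked per kilobase. Mif lay above 99.1% and Csf1 above 93.7% of them, whereas Ddt lay above 68.3% and Il34 above 56.8%.

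**Figure D1:**
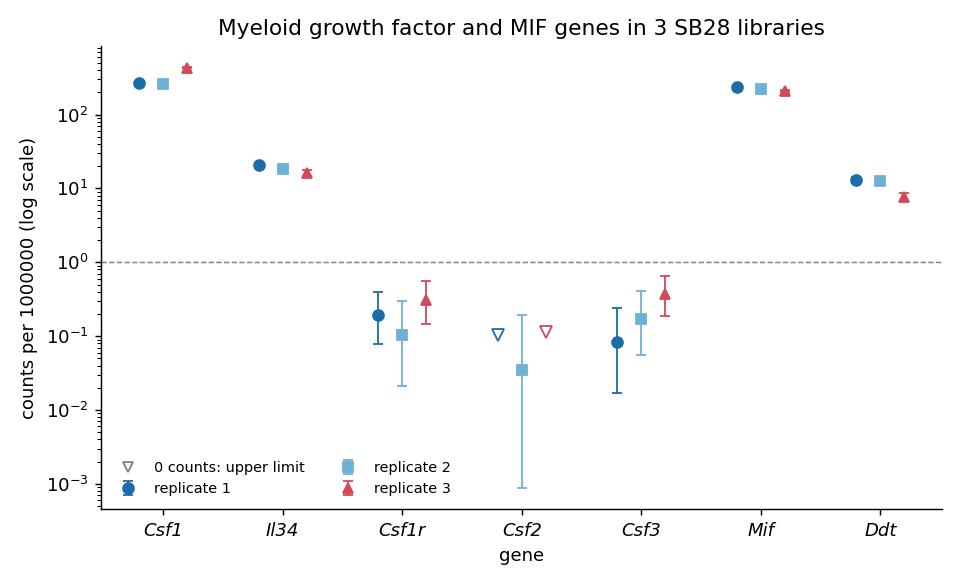
Counts per 1000000 (log axis) of the 7 genes in the 3 libraries; bars are exact 95% Poisson intervals of the count, open triangles mark the upper limit where a library had 0 counts, and the dashed line is 1 CPM. Csf1 and Mif lay between 208 and 433 CPM, Il34 and Ddt between 7.63 and 20.9, and Csf1r, Csf2 and Csf3 below the line.

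The reads that can be assigned to Mif may be limited by its processed copies elsewhere in the genome, so the sequences are shown first. Mif lies on chromosome 10 at 75859353 to 75860240 on the minus strand (GRCm38), and its main transcript has 348 coding bases. Gm10169 on chromosome 7 (29965218 to 29965565) matches those bases at 345 of 348 positions, with an identical run of 255 bases. Gm16379 on chromosome 9 (14845365 to 14845712) matches at 342 of 348. The first 90 coding bases of Mif and the stretches of both pseudogenes aligned with them are given 5′ to 3′ from the GENCODE M21 transcripts, with capitals at the bases where a copy differs from Mif.
Mif: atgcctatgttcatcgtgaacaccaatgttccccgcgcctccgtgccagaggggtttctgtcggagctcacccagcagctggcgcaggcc
Gm10169: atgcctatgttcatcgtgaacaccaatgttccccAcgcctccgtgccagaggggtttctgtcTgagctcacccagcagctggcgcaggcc
Gm16379: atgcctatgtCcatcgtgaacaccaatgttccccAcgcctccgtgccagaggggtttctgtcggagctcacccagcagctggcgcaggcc
Each copy differs from Mif at 2 of these 90 bases. Of the 50-base windows of the Mif transcripts, 50.9% also occur in annotated transcripts of other genes, and 28.2% of the 100-base windows do. The genes that share windows also include C230062I16Rik and, at 50 bases only, Gm16302, which were not aligned here. The other 4 processed copies searched, Mif-ps3, Gm8762, Mif-ps7 and Gm5228, aligned without gaps at 86.4%, 69.6%, 63.0% and 62.5% identity. A read that fits more than 1 position is not counted by a counter of this kind, and none of the 6 copies has a line of its own in the files, so the Mif values would be too low to the extent that this applied. That extent was not tested, since neither the read length nor the alignment setting is given in the sources used here.

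Shared or overlapping sequence touched the other members less. No 50-base window of Csf1 or Csf3 occurred in another gene's transcripts. Of the exon bases of Ddt, 30.0% also lie in exons of Gm20441, a gene model on the same strand that has no line in the files. Of those of Csf1r, 15.1% lie in exons of Hmgxb3 on the opposite strand, which itself stood at 70.5, 70.2 and 75.0 CPM in replicates 1, 2 and 3. The overlap was 12% for Csf2 and 4.95% for Il34, in both cases with antisense genes that have no line. The strand setting of the counting is not given in the sources used here. How reads in the overlap of Csf1r with Hmgxb3 were counted is therefore not known. Whether reads from the genes without a line were counted for Ddt, Csf2 or Il34 was not tested.

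Windows of 250 bases before and 50 after the annotated start site were present for Csf1, Csf2, Mif and Ddt in the RefSeq promoter table (GRCm38.p6). The 250 bases before the start of the 3 members with the highest levels per kilobase are printed 5′ to 3′ on the strand of the gene, all 3 on the minus strand, to show how different their upstream sequences are. They are chr3:107760470-107760719 for Csf1, chr10:75860278-75860527 for Mif and chr10:75773375-75773624 for Ddt. Capitals mark a match to an NF-kappaB site in Csf1, to a cyclic AMP response element (CRE) in Mif and to an E-box in Ddt.
Csf1: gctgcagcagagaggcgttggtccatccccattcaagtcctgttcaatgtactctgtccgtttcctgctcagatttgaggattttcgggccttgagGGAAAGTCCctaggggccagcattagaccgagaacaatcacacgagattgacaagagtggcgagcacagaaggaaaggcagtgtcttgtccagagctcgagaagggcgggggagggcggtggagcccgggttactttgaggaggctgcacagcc
Mif: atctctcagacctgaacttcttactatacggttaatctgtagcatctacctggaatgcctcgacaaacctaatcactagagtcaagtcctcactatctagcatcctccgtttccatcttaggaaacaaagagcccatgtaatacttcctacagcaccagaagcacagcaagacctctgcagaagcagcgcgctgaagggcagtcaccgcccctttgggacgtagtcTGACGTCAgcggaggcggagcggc
Ddt: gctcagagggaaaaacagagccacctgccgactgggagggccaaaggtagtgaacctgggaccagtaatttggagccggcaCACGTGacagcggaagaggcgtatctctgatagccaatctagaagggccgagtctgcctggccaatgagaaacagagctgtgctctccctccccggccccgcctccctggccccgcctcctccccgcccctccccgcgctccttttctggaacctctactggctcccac
The motifs were chosen with these sequences in view and searched on both strands of the whole windows. GGACTTTCC, the core of an NF-kappaB site, matched the Csf1 window once, at bases -154 to -146 from the start on the opposite strand, and 0.344% of 32817 promoter windows hold it. TGACGTCA, the CRE, matched the Mif window once, at bases -24 to -17, and 1.79% of windows hold it. CACGTG, the E-box, matched Ddt once, at bases -169 to -164, and 7.15% of windows hold it. The GC box GGGCGG, held by 35.6% of windows, matched Csf1 and Mif at 2 positions each and Ddt and Csf2 at 1 each, with no overlap with the other matches. The AP-1 site TGACTCA, which 5.20% of all windows hold, had no match in these 4. Nor had the TATA box, searched as TATAAA, which 13.6% of all windows hold. The start sites are those of RefSeq. That of Csf1 is also the start of its GENCODE gene model, those of Mif and Csf2 lie 37 and 232 bases upstream of it, and that of Ddt lies 40 bases inside the model, so that the last 40 bases printed for Ddt belong to its GENCODE gene. A match is a description of letters, and binding was not measured.

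Csf1, the main macrophage growth factor, was the ligand with the higher level. It lies on chromosome 3 at 107741048 to 107760469. Csf1 stood at 267 CPM in replicate 1, 263 in replicate 2 and 433 in replicate 3, from 9614, 7627 and 14144 counts. Replicates 1 and 2 lay close together and replicate 3 stood above both. After scaling by the trimmed mean of M-values (TMM), Csf1 in replicate 3 was 1.65-fold the mean of the others, 0.72 on the log2 scale, and 4.40% of the 12737 tested genes were shifted upwards at least as far. The chi-square test of its 3 counts against counting noise gave a statistic of 1964. Between pairs of libraries, the adjusted p was 9.14e-305 for replicates 1 and 3, 1.09e-278 for replicates 2 and 3, and 0.732 for replicates 1 and 2.

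Il34, the other ligand of CSF1R, is known in the brain as a neuronal product that supports microglia. It lies on chromosome 8 at 110741829 to 110805924 and was lower and shifted the other way. Il34 stood at 20.9, 18.5 and 16.3 CPM in replicates 1, 2 and 3, lowest in replicate 3. The adjusted p over the 3 libraries was 0.000206 (chi-square test of counts), at a shift of -0.26 on the log2 scale, in a range where 25.0% of tested genes were shifted downwards at least as far. Between pairs of libraries, replicates 1 and 3 differed (adjusted p = 4.57e-05), while replicates 2 and 3 (0.0716) and replicates 1 and 2 (0.315) did not pass, so the call needs both replicate 1 and replicate 3. Per base of exon, Csf1 exceeded Il34 by 4.74-fold in replicate 1, 5.27-fold in replicate 2 and 9.85-fold in replicate 3. The ratio was thus widest in the library where Csf1 was high and Il34 low, and in each library it was above 1.

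Csf1r, which encodes the receptor of both ligands, was near 0. It lies on chromosome 18 at 61100598 to 61132149. Csf1r had 7, 3 and 10 counts, or 0.194, 0.103 and 0.306 CPM, with exact 95% intervals that overlap between all libraries (0.0781 to 0.400, 0.0213 to 0.302 and 0.147 to 0.564 CPM, counting error only). Per base over the pooled libraries, Csf1 lay 1716-fold above Csf1r (exact 95% interval 1111 to 2809, counting error only), and Il34 lay 268-fold above it (173 to 440). In RNA from many cells, a few cells with much Csf1r and many cells with little cannot be told apart. Of 18 macrophage and microglia markers, 14 lay below 1 CPM in all libraries, and Adgre1, Aif1, Tyrobp, C1qa, C1qb and C1qc had 0 counts. Of the 18, 3 were detected in all libraries, against 46.6% of all gene lines. They were Tmem119 (75.6, 69.7 and 41.2 CPM), Cd14 (11.5, 10.3 and 8.55) and Cd68 (5.16, 4.79 and 3.34), and Laptm5 reached 1 CPM in replicate 3 only. The summed level of the 18 markers was 93.5, 86.4 and 55.4 CPM, lowest in replicate 3, where Csf1 was highest, and most of it was Tmem119. Laptm5 went the other way, at 0.361, 0.759 and 1.26 CPM, and was 2.22-fold higher in replicate 3 (adjusted p = 0.000285, chi-square test of counts). The part that such cells have in the Csf1r counts was not tested.

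Csf2 and Csf3 were hardly present. Csf2, on chromosome 11 at 54247271 to 54249667, had 0 counts in replicates 1 and 3 and 1 in replicate 2. For the counts of 0, the upper limit of the exact 95% interval was 0.102 CPM in replicate 1 and 0.113 in replicate 3. Csf3, on chromosome 11 at 98701263 to 98703629, had 3, 5 and 12 counts, or 0.0833, 0.172 and 0.368 CPM. Its exact 95% intervals overlapped between replicates 1, 2 and 3 (0.0172 to 0.243, 0.0560 to 0.402 and 0.190 to 0.642 CPM). Both genes had mean counts below 10, the minimum for the test between libraries, as had Csf1r, and so none of the 3 entered it. With every gene of at least 1 count in the chi-square test, the adjusted p was 0.0576 for Csf3, 0.306 for Csf1r and 0.416 for Csf2, at counts too low for that test to be accurate. Per base over the pooled libraries, Csf1 lay 420-fold above Csf3 (272 to 687) and 4754-fold above Csf2, the latter with an interval of 853 to 187795 because it rests on 1 count.

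Mif was the highest member per kilobase. It stood at 234, 221 and 208 CPM in replicates 1, 2 and 3, from 8432, 6397 and 6794 counts. The values were lowest in replicate 3, and the whole range was narrow, with a coefficient of variation of 5.86% against 30.3% for Csf1. The adjusted p was 1.48e-10 (chi-square test of the 3 counts), at a shift of -0.12 on the log2 scale. Mif also differed between replicates 1 and 2 (adjusted p = 0.0164), as did 2.01% of genes tested. Per base of exon, Mif exceeded Csf1 by 6.22-fold, 5.95-fold and 3.41-fold in replicates 1, 2 and 3. Without gene length Csf1 had the more counts of the pair, because the exons of Csf1 cover 5281 bases and those of Mif 745.

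Ddt, the paralog of Mif, was transcribed at a far lower level. It lies on chromosome 10 at 75771230 to 75773414, on the same strand as Mif and 85.9 kb from it. Ddt stood at 13.0, 12.5 and 7.63 CPM, and replicate 3 was the low library. In replicate 3 it was 0.602-fold the mean of the others (adjusted p = 2.44e-11, chi-square test of counts), a shift of -0.73 on the log2 scale, and 8.20% of tested genes were shifted downwards at least as far. Mif exceeded Ddt per base by 18.6-fold, 18.3-fold and 28.3-fold, and all 3 libraries lay far above 1. Of the genes between both on the chromosome, the files list 4 glutathione S-transferase genes of the theta class. Gstt3 stood at 1.92, 2.31 and 0.705 CPM and was lower in replicate 3 (adjusted p = 3.80e-06). Gstt2 stood at 0.50, 0.345 and 0.123 CPM (adjusted p = 0.0384), also lowest there. Gstt1 (9, 7 and 2 counts) and Gstt4 (1, 0 and 0) were below the test's minimum.

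**Figure D2:**
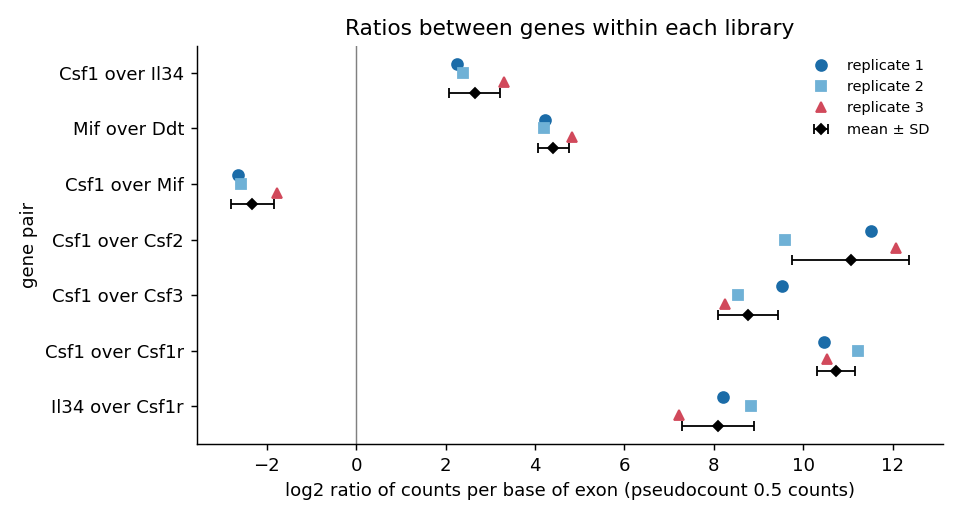
Log2 ratio of counts per base of exon (pseudocount 0.5 counts) for 7 gene pairs, with 1 symbol per library and the mean ± SD below each; positive values mean that the first gene is higher. Csf1 over Il34 and Mif over Ddt lay above 0 in each library, and Csf1 over Mif lay below 0. Pairs with Csf2, Csf3 or Csf1r rest on few counts. The SD was 1.30 for Csf1 over Csf2, 0.81 for Il34 over Csf1r, 0.67 for Csf1 over Csf3 and 0.42 for Csf1 over Csf1r. The other pairs plotted had an SD of 0.36 to 0.57.

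The 7 ratios plotted were each larger than the spread between replicates, a call that needs the same sign in all 3 libraries and a mean of over 2 SD on the log2 scale. Csf1 over Il34 was 2.65 ± 0.57, Mif over Ddt 4.41 ± 0.36 and Csf1 over Mif -2.33 ± 0.48 (SD, n = 3, log2 ratio). Replicates 1 and 2 were far closer to each other than to replicate 3, and whether they come from 1 culture is not stated. With their average counted as 1 sample, n is 2 and these ratios were 2.81, 4.51 and -2.19, still over 2 SD. The exact two-sided sign-flip permutation p was 0.25 for each, the smallest that 3 libraries allow. Of the neighbours in the order of levels, Ddt and Il34 differed by 0.56 ± 0.28, just past this rule, and the call was lost without replicate 1 (0.51), without replicate 2 (0.45) and with replicates 1 and 2 averaged (0.48). Csf3 and Csf1r differed by 1.97 ± 0.92, but not beyond the spread without replicate 2 (1.61) or without replicate 3 (1.81). Csf1r and Csf2 did not differ beyond their spread (0.32 ± 1.71, exact two-sided permutation p = 1).

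The 4 tested members all differed between libraries beyond counting noise, where 65.7% of all tested genes did, so their count stands close to what most genes show. Csf1 was the 1 member highest in replicate 3 (33.1% of tested genes were called and highest there), and Il34, Mif and Ddt were lowest there (31.5%). Replicate 3 stood apart over all genes: 2.01% of genes differed between replicates 1 and 2, 64% between 1 and 3, and 62.8% between 2 and 3. It also had the largest share of reads outside annotated genes, 6.54% against 5.19% in replicate 1 and 5.27% in replicate 2, and of reads with more than 1 position, 9.58% against 8.93% and 8.86%. Whether these shares have a part in the shifts of the members was not tested. Libraries held 28990128 to 36019009 counts assigned to genes. When the spread between all 3 libraries (edgeR common dispersion 0.0294) took the place of counting noise, none of the 4 members passed, with adjusted p = 0.533 for Csf1, 0.853 for Ddt and 1.000 for Il34 and Mif, and 256 of all genes did. That spread was estimated from the same 3 libraries, and without replicate 3 it was 0.000422. It therefore includes the shift of replicate 3 that is tested, and this setting cannot decide whether the members differ.

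**Figure D3:**
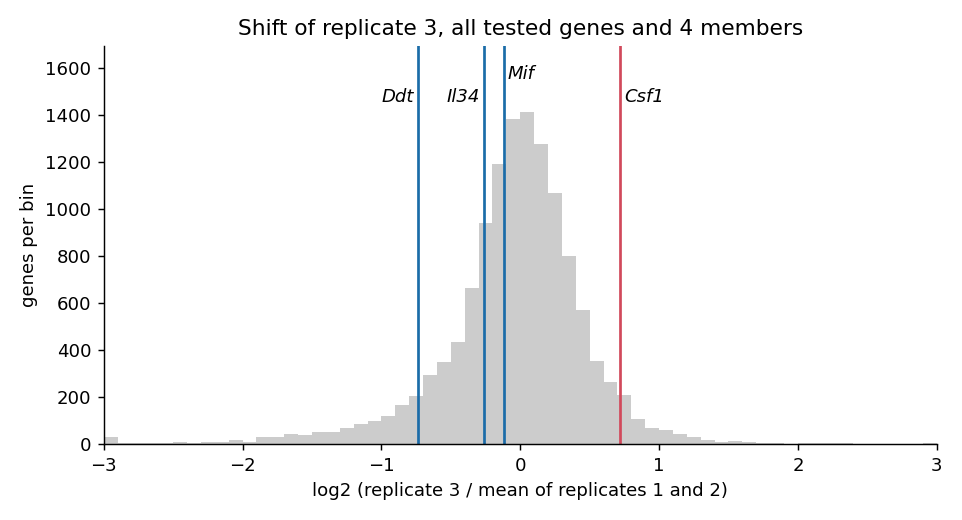
Distribution over all 12737 tested genes of the log2 ratio of replicate 3 to the mean of replicates 1 and 2 after TMM scaling (x axis; genes beyond -3 or 3 are in the outermost bins; y axis, genes per bin of width 0.1). The vertical lines mark Ddt at -0.73, Il34 at -0.26, Mif at -0.12 and Csf1 at 0.72, so that Csf1 and Ddt lie towards opposite flanks of the distribution.

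The genes whose pattern over the 3 libraries lay nearest to Csf1, by Euclidean distance of log2 deviations among 9028 other genes of at least 10 CPM, were Iqgap3 (distance 0.0012), Haus5 (0.0025), Cdc6 (0.0074), Timm9 (0.0079) and Txnrd1 (0.011). Txnrd1, the cytosolic thioredoxin reductase, stood at 258, 252 and 414 CPM and Cdc6, a replication licensing factor, at 25.1, 24.6 and 40.6. For Mif they were Akap7 (0.0020), 1700037H04Rik (0.0032), Fchsd2 (0.0045), Csad (0.0048) and Shisa4 (0.0050). With only 3 libraries such patterns are common: 88 genes lay within 0.05 of Csf1 and 345 within 0.05 of Mif. In level per kilobase, Csf1 stood between Ruvbl1 and Tmem14c below and Mrgpra6 and Hspg2 above, at 60.6 to 60.9 CPM per kb. Mif stood between the ribosomal protein gene Rpl6 (296) below and Tuba1b (299) and the ribosomal protein gene Rpl7 (300.1) above.

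Most receptor genes for these factors were near 0. Of 8 receptor genes for colony-stimulating factors and related myeloid growth factors, 2 were detected at 1 CPM in all libraries, against 46.6% of all gene lines. Il3ra, the alpha chain of the IL-3 receptor, stood at 14.8, 12.6 and 12.4 CPM. Csf2ra, the ligand-binding chain for CSF2, stood at 2.97, 3.69 and 4.60 CPM and was higher in replicate 3 (adjusted p = 0.00363, chi-square test of counts). Csf2rb and Csf2rb2, the shared and IL-3-specific signalling beta chains that pair with such alpha chains, had 0 counts in all 3 libraries, as had Csf3r and Kit. These beta chain genes resemble each other closely, and whether reads that fit both went uncounted was not tested. Flt3 had 11, 9 and 2 counts. Of the 3 other binding partners of IL-34, the heparan sulphate proteoglycan gene Sdc1 was high at 181, 175 and 155 CPM, lowest in replicate 3 (adjusted p = 6.43e-14). Trem2 had 1 count in all and the receptor phosphatase gene Ptprz1 had 0.

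MIF partners were divided between a high co-receptor and a nearly absent receptor. Of 6 genes, 4 were detected in all libraries, against 46.6% of all gene lines. Cd44, the co-receptor that signals with CD74, stood at 904, 922 and 784 CPM. Cd74, the surface receptor itself, had 3, 4 and 1 counts, or 0.0833, 0.138 and 0.0306 CPM. Cops5, the intracellular partner JAB1, stood at 89.6, 92.7 and 98.2 CPM. Among the chemokine receptors that bind MIF, Ackr3 stood at 7.30, 8.28 and 10.3 CPM, and Cxcr4 at 3.58, 4.35 and 1.16. Ackr3 was highest and Cxcr4 lowest in replicate 3 (adjusted p = 0.000165 and 1.32e-12). Cxcr2 had 3, 7 and 14 counts. The median over the 6 genes was 2.13 CPM per kb, and over all gene lines it was 0.224.

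**Figure D4:**
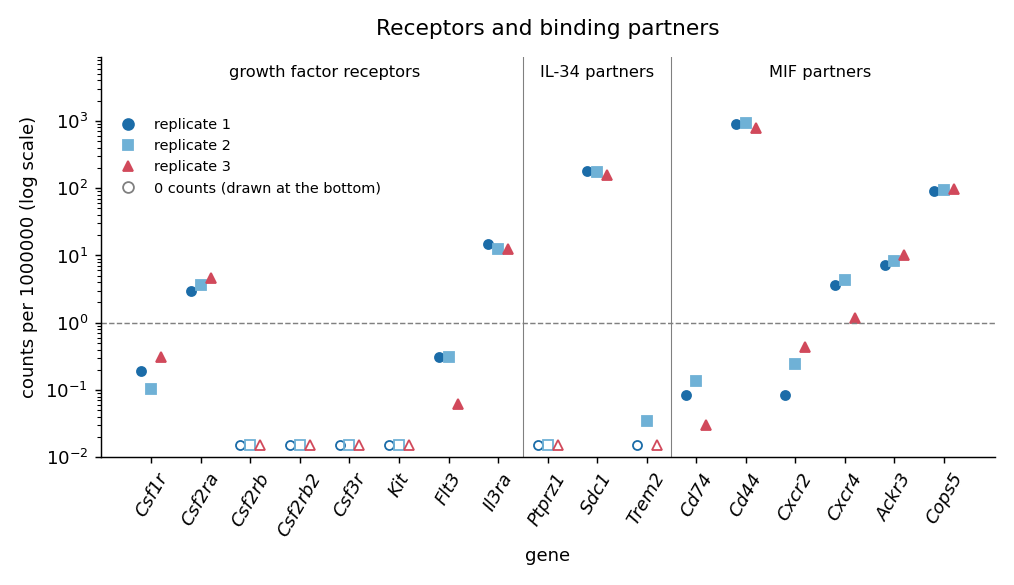
Counts per 1000000 (log axis) in 3 libraries for receptors of myeloid growth factors, other IL-34 partners and MIF partners; open symbols at the bottom stand for 0 counts and the dashed line is 1 CPM. Cd44, Sdc1 and Cops5 stood between 89.6 and 922 CPM, not adjusted for gene length, and Csf2rb, Csf2rb2, Csf3r, Kit and Ptprz1 had no count in any library.

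CSF1 is made as a membrane protein and is released by the protease ADAM17. All 5 genes of this release list were detected (46.6% of all gene lines were), with a median of 13.4 CPM per kb against 0.224 over all gene lines. Adam17 stood at 82.2, 82.9 and 75.1 CPM, and its relative Adam10 at 212, 215 and 176. Rhbdf1, one of the iRhom partners that ADAM17 needs to mature, stood at 74.0, 71.8 and 72.2 CPM and was the 1 gene of the list that did not pass the test between libraries (adjusted p = 0.577). The other 4 passed, where 65.7% of all tested genes did, and were lowest in replicate 3, where 31.5% of all tested genes were called and lowest. Among these 4 were the iRhom gene Rhbdf2 (23.2, 19.5 and 11.5 CPM) and Timp3, an inhibitor of ADAM17 (240, 243 and 129).

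Most signalling genes downstream of CSF1R were present although the receptor gene was near 0. Of 24 genes, 19 were detected in all libraries, against 46.6% of all gene lines, and the median of the 24 was 4.48 CPM per kb. Per kilobase they were led by the adaptors Shc1 (368, 370 and 300 CPM), Dok1 (110.0, 110.2 and 110.0) and Grb2 (112, 108 and 88.7) and the kinase Src (171, 167 and 191). Among the 5 genes below 1 CPM in all libraries, named here after their values were seen, were the phosphatase Inpp5d, the adaptor Dok2, the macrophage transcription factor Spi1, and Tyrobp, which had 0 counts. Of 20 genes tested, 15 differed between libraries, 6 highest and 9 lowest in replicate 3, close to the 65.7% of all tested genes that differed (33.1% highest and 31.5% lowest there).

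All 19 regulators of the transcription or mRNA decay of these factors were detected, as were 46.6% of all gene lines, with a median of 18.2 CPM per kb. They were led per kilobase by Jun (366, 352 and 362 CPM), the decay factor Khsrp (252, 250 and 252), Fos (89.2, 94.1 and 188) and Junb (129, 126 and 102). Of the 19, 14 differed between libraries, 5 highest and 8 lowest in replicate 3, again close to the 65.7% of all tested genes. The 5 highest there, named after their values were seen, were Fos, Fosl1, Zfp36, Elavl1 and Hnrnpd. Zfp36, whose protein destabilises the mRNAs of CSF2 and other cytokines, stood at 52.5, 53.4 and 83.8 CPM. The NF-kappaB genes Nfkb1 (117, 115 and 118 CPM) and Rela (95.2, 90.3 and 89.1) were nearly level across libraries, and Rela passed the test (adjusted p = 0.0421) while Nfkb1 did not (0.487); both were named because their site was searched above.

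Among 22 other secreted factors that act on myeloid cells, 12 were detected in all libraries, against 46.6% of all gene lines. Per kilobase they were led by osteopontin, Spp1 (7258, 7135 and 3608 CPM), Vegfa (71.5, 74.7 and 50.9), the chemokine Cxcl12 (87.6, 88.1 and 124) and Il11 (17.96, 18.1 and 15.0). Il3, Il1a, Il1b, Tnf and Epo had 0 counts. Of 13 genes tested, 10 differed between libraries, where 65.7% of all tested genes did, and 8 of them were lowest in replicate 3. The 2 that were highest there, named after their values were seen, were Cxcl12 and the KIT ligand gene Kitl (13.5, 14.2 and 26.1 CPM). Csf1, Cxcl12 and Kitl were thus higher in the same library in which Spp1 and Vegfa were lower, and 31.5% of all tested genes were called and lowest and 33.1% called and highest in it.

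The 8 granulocyte and 9 lymphocyte markers gave 0 genes at 1 CPM, where 46.6% of all gene lines reached it in all libraries. Their summed levels were at most 0.674 and 0.416 CPM, and Ly6g had no line. Of the granulocyte markers, S100a8 had 5, 6 and 8 counts, Cxcr2 is given above, and S100a9, Mpo, Elane, Csf3r and Retnlg had 0. Of 7 glioma and neural progenitor genes, 5 were detected in all libraries, against 46.6% of all gene lines. These were Nes (443, 433 and 405 CPM), Sox2 (112, 110 and 116), Sox9 (32.1, 29.1 and 20.8), Vim (5513, 5317 and 5381) and Cd44. Sox9 was lower in replicate 3 (adjusted p = 6.41e-18, chi-square test of counts), while Gfap and Olig2 had 0 counts. Of 6 endothelial markers, 2 were detected in all libraries, against 46.6% of all gene lines. Cdh5 stood at 380, 371 and 303 CPM, lowest in replicate 3. Kdr lay nearer the threshold at 1.11, 1.07 and 2.64 CPM and was highest in replicate 3. Tek was split, while Pecam1 had 6 counts in all and Cldn5 and Tie1 had 0.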

How the data were processed

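The authors deposited raw counts per gene symbol, 1 headerless file for each of 3 SB28 libraries. Per the submitters' processing notes, Bowtie2 2.2.4 and HTSeq were used with mm10; roles and options are not given in the sources used here. Per the labels, a TruSeq RNA kit was used. The 5 summary lines stayed out of library sizes and tests.

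CPM was computed over counts assigned to genes and divided by union exon length (GENCODE M21, GRCm38). For every gene averaging 10 counts or more, a chi-square test with 2 degrees of freedom set its 3 counts against TMM-scaled library sizes (edgeR 4.0.16, R 4.3.3). P-values were Benjamini-Hochberg adjusted over these genes, with a threshold of 0.05; the steps were tested on simulated data. DESeq2 1.42.0 gave an alternative scaling and dispersion. Intervals at 95% are exact (Poisson, or Clopper-Pearson for pooled ratios) and cover counting error alone, since reads copied by PCR cannot be recognised.

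The members and lists were chosen with earlier results of these data known. Of each larger pathway list, the 4 genes highest per kilobase and those at 0 counts (where at most 6) are named; pathway lists of up to 8 genes are given whole. Marker genes were named after their values were seen. Other genes are named where stated. A few genes that this rule would name are not reported here. Python 3.11.15 was used.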

Additional observations from a re-analysis of the deposited data

How the results depend on the processing

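Replicate 3 sets most of the spread. Leaving out 1 replicate gave 256 to 8191 genes that differ between libraries, against 8369, and an edgeR common dispersion of 0.000422 to 0.0479, against 0.0294 with all libraries; the DESeq2 gene-wise median was 0.00842. With the common dispersion as noise, 256 genes passed, and the unchanged shifts of Csf1 (0.72), Il34 (-0.26), Mif (-0.12) and Ddt (-0.73) no longer did. The dispersion came from the same libraries and includes the replicate 3 shift, so this setting cannot decide on these shifts. Without 1 replicate the Il34 shift was -0.35 to -0.18 and passed only without replicate 2. The Mif level was 241 CPM without the 20 most abundant genes in the library size and 368 CPM per kb with its longest transcript, against 221 and 297. Without gene length, 3 log2 ratios changed sign: Csf1 over Mif (0.50), Ddt over Il34 (-0.78) and Csf3 over Csf1r (-0.065). Leaving out 1 replicate gave 0.45 to 0.72 for Ddt over Il34, 1.61 to 2.48 for Csf3 over Csf1r and -0.29 to 1.30 for Csf1r over Csf2 (also -0.04). Ddt over Il34 was no longer larger than the spread with replicates 1 and 2 averaged (0.48), nor was Csf3 over Csf1r with the longest transcript (1.67) or a pseudocount of 0.1 (1.96), and Csf1r over Csf2 was -1.76 with a pseudocount of 5. Apart from the construction of the settings, the cause was not tested. Over the alternatives, 82 of 96 log2 ratios and 23 of 28 differences between libraries kept their direction and call, and each of 40 counts of detected genes stayed within 1.5 times. The 28 do not include leaving out replicate 3, which removes most of these differences. Replicate 2 against replicate 1 then gave log2 shifts of -0.024 for Csf1, -0.18 for Il34, -0.088 for Mif and -0.060 for Ddt, and only Mif passed. Levels have no call; without 1 replicate the Csf2 level was 0 to 0.0172 CPM, against 0.0115, with 0 without replicate 2, and the Csf3 level 0.128 to 0.270 CPM, against 0.208, with 0.128 without replicate 3. No paired analysis was possible because there is only 1 group. Counts of 20 or fewer in all limit Csf1r, Csf2 and Csf3.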
